A study of Mus musculus with 14 samples.

Results

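This account compares 3 mouse colon libraries that had little Hoxb13 mRNA with 7 libraries that had an intermediate amount, out of 14 libraries in the series. Hoxb13 encodes a posterior homeobox transcription factor whose expression marks the distal end of the hindgut. The libraries were chosen by their own Hoxb13 level in CPM, the read count scaled to a common library total. Those under 30 CPM are called low-Hoxb13 and those from 30 to under 300 CPM mid-Hoxb13. The other 4 libraries, at 300 CPM and over, entered no test but an alternative fit.

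Wild-type mice had been gavaged either with Bacteroides thetaiotaomicron or with the vehicle, phosphate-buffered saline (PBS), and their colon was sequenced. B. thetaiotaomicron is a gut anaerobe that degrades polysaccharides. Its title places the bacterium in the setting of saliva and hypertension. The low-Hoxb13 libraries were 1 PBS sample (4) and 2 B. thetaiotaomicron samples (2 and 4), and the mid-Hoxb13 libraries were 3 PBS samples (2, 6 and 7) and 4 B. thetaiotaomicron samples (1, 5, 6 and 7). Strain, sex, age, dose and duration are not given in the labels, which also carry 1 batch entry and 1 treatment entry for all samples. The titles call the repeats of each gavage biological replicates. They do not say whether each library came from 1 animal, so p-values measure only the spread between these libraries.

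The colon is patterned along its length. Posterior Hox genes are switched on towards the anus, and the epithelium changes with position in how it takes up salt and water, which sugars it adds to its mucins and which hormones its endocrine cells make. Absorptive colonocytes carry sodium and chloride transporters, goblet cells secrete the mucin Muc2, and enzymes of the Golgi extend, branch and sulfate the glycans on that mucin.

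Hoxb13 stood at 0.199 CPM in PBS sample 4, a count of 3, at 4.32 CPM in B. thetaiotaomicron sample 2 and at 22.2 CPM in B. thetaiotaomicron sample 4. The mid-Hoxb13 libraries ran from 53.7 CPM in PBS sample 2 to 263 CPM in B. thetaiotaomicron sample 7. The values nearest the limits were therefore 22.2 and 53.7 CPM at the lower one, and 263 and 368 CPM at the upper one. These levels made the groups and are a description only. Hox genes are left out of the results below, and none of the 24 that were tested passed the threshold.

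**Figure D1:**
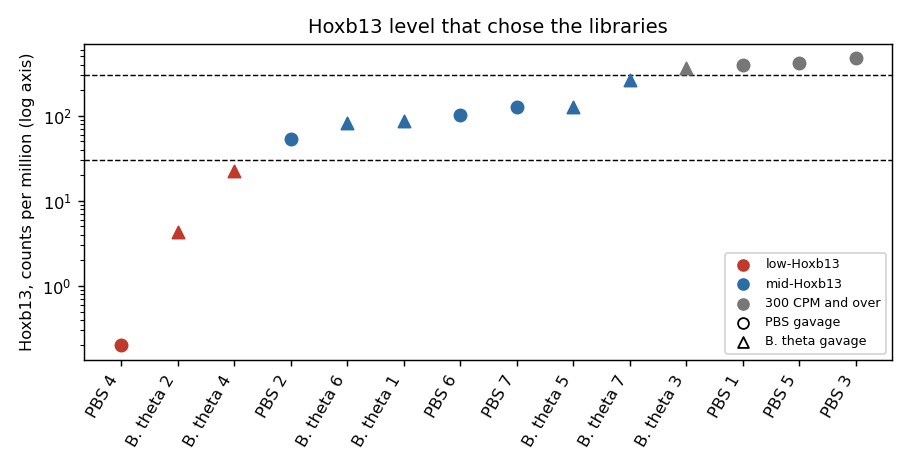
Hoxb13 in CPM on a log axis for each of the 14 libraries, ordered by level, with circles for PBS, triangles for B. thetaiotaomicron and dashed lines at the 30 and 300 CPM limits. The 3 low-Hoxb13 libraries spread from 0.199 to 22.2 CPM, wider in proportion than the 7 mid-Hoxb13 libraries at 53.7 to 263 CPM.

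The labels say colon and give no position along it, so a proximal or middle origin could only be looked for in the transcripts. Of 11 genes listed as proximal colon markers, all were tested, none passed the threshold, 6 had positive and 5 negative log2 fold changes, and the median was 0.04. Of 8 tested distal colon markers, 7 had negative values and 1 passed as lower in the low-Hoxb13 libraries. The median was -0.69. Over all genes tested the median was 0.00014 and 1.19% passed. Since the proximal list did not separate the groups, the libraries are named here by Hoxb13 alone.

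Total counts were 13299893 to 16781708 over the 10 libraries. They differed between the groups by less than the spread within them (two-sided exact permutation test, p = 0.592, n = 3 and 7). The share of counts from mitochondrial transcripts was 4.17% ± 0.565 (SD, n = 3) in the low-Hoxb13 and 4.14% ± 0.337 (SD, n = 7) in the mid-Hoxb13 libraries (two-sided exact permutation test, p = 0.933, where 0.00833 is the smallest p possible). No pair of libraries agreed within sampling noise. PBS sample 4 stood apart on the first principal component, which held 31.5% of the variance: it lay at 57.5, and the other 9 libraries lay between -22.9 and 14.5.

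The comparison asked which genes other than Hox genes differed between low-Hoxb13 and mid-Hoxb13 libraries at equal gavage. With edgeR's quasi-likelihood test, 174 of 14573 genes passed a Benjamini-Hochberg adjusted p of 0.05, which is 1.19%. They were 95 genes higher in the low-Hoxb13 libraries, 0.652% of those tested, and 79 lower, 0.542%. Among the 95 higher genes 23 differed by at least 2-fold, and among the 79 lower genes 11 did. The groups did not overlap in 142 of the 174, 71 in each direction. Over all genes tested they did not overlap in 860, or 5.9%, with 2.53% higher and 3.37% lower.

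These counts rested on the 2 libraries with the least Hoxb13. Without PBS sample 4, or without B. thetaiotaomicron sample 2, 1 gene passed, Gal3st2b in both cases, against 314 without B. thetaiotaomicron sample 4. Adding a smooth muscle score to the fit left 10 genes. All 174 genes kept their sign in each of these fits. PBS sample 4 was the low-Hoxb13 library farthest from the mid-Hoxb13 median in 135 of the 174 genes, and B. thetaiotaomicron sample 4 was the nearest in 127. 

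**Figure D2:**
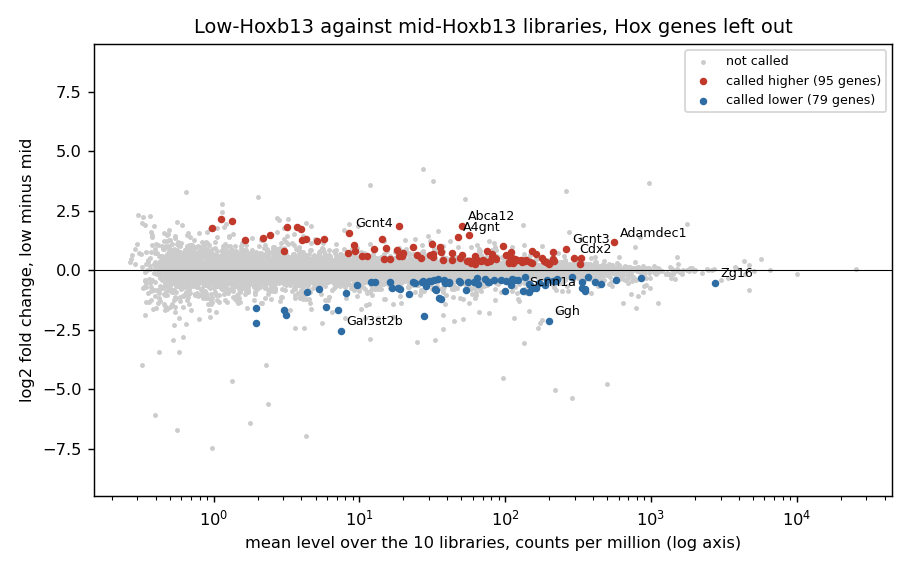
Log2 fold change, low-Hoxb13 minus mid-Hoxb13, against the mean level over the 10 libraries in CPM on a log axis, for every tested gene other than Hox genes. The 95 genes called higher are red, the 79 called lower are blue, and several large differences among the grey points did not pass.

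**Figure D3:**
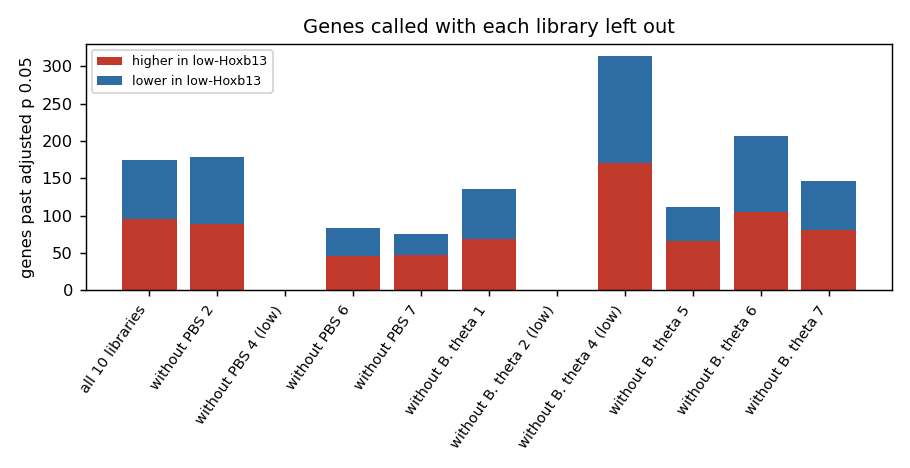
Number of genes past an adjusted p of 0.05 with all 10 libraries and with each left out in turn, stacked as higher and lower in the low-Hoxb13 libraries. The bars fall to 1 gene without PBS sample 4 or B. thetaiotaomicron sample 2 and reach 314 without B. thetaiotaomicron sample 4.

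Gal3st2b gave the smallest p of all. It encodes a galactose-3-O-sulfotransferase, one of the enzymes that put sulfate on galactose in mucin-type glycans. In the order PBS sample 4, B. thetaiotaomicron sample 2 and B. thetaiotaomicron sample 4, which is kept for all low-Hoxb13 values below, its level was 1.35, 1.43 and 2.36 CPM (on scaled library totals). The mid-Hoxb13 libraries held 6.12 to 12.5 CPM with a median of 9.99. The groups lay far apart, with a log2 fold change of -2.55 ± 0.24 (SE) and an adjusted p of 0.00113. The log2 fold change was -2.52 without PBS sample 4 (adjusted p = 0.013) and -2.39 without B. thetaiotaomicron sample 2 (adjusted p = 0.0213).

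Gal3st2b (ENSMUSG00000093805) lies on chromosome 1 at 93918311 to 93942650 on the plus strand of GRCm38, between 2 near copies, Gal3st2 on chromosome 1 at 93861306 to 93876494 on the plus strand and Gal3st2c on chromosome 1 at 93990509 to 94017147 on the plus strand. All are protein-coding. The longest open reading frames of the 3 genes are 1191 bases each. Gal3st2b matched Gal3st2 at 1185 of those bases (99.5%) and Gal3st2c at 1167 (97.98%). How the authors assigned reads that fit more than 1 copy is not given in the sources used here, so the split among the copies is uncertain.

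The copies did not share one pattern. Gal3st2 was at 26.8, 16.2 and 14.4 CPM against 10.6 to 23.7 CPM with a median of 15.4, so its groups overlapped and its log2 fold change was 0.24 ± 0.23 (SE), adjusted p = 0.695. Gal3st2c was at 6.05, 6.36 and 4.12 CPM against 5.46 to 39.8 CPM with a median of 18.4. Its log2 fold change was -1.99 ± 0.65 (SE) with an adjusted p of 0.198, and PBS sample 2 overlapped the low-Hoxb13 libraries. In the 4 libraries at 300 CPM Hoxb13 and over, Gal3st2b was at 20.6 to 23.1 CPM, Gal3st2 at 20.2 to 22.9 CPM and Gal3st2c at 52.7 to 64.5 CPM.

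The bases upstream of each copy are printed, since the coding copies are nearly the same while these stretches are not. The 250 bases before each RefSeq start (GRCm38.p6) aligned with 57.47% identity between Gal3st2 and Gal3st2b, 56% between Gal3st2 and Gal3st2c and 57.6% between Gal3st2b and Gal3st2c, over the bases aligned. Where the GENCODE gene begins before the RefSeq start, the bases inside it are left off. All letters are lower case because the motif described further on is in none of them.
Gal3st2, chr1:93861094-93861305, plus strand: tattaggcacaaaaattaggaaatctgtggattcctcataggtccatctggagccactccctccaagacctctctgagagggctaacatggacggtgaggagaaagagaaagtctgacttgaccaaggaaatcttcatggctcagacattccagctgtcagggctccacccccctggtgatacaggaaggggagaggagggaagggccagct
Gal3st2b, chr1:93918187-93918310, plus strand: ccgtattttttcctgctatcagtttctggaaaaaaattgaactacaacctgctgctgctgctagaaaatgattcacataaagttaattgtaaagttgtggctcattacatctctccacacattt
Gal3st2c, chr1:93990255-93990504, plus strand: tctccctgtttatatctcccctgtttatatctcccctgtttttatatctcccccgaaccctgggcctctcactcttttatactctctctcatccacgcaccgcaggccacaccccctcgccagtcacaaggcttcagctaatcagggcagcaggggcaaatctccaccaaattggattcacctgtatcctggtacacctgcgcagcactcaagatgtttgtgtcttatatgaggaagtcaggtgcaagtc

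Other enzymes that build mucin glycans also differed. Of 31 tested members of that list, 5 were higher in the low-Hoxb13 libraries (Gcnt4, Gcnt3, A4gnt, Galnt6 and C1galt1c1), 1 was lower (Chst4) and 25 did not pass. Over all genes tested the shares were 0.652% higher and 0.542% lower. The list's median log2 fold change was -0.0062. Gal3st2b was not on the list.

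Galnt6, a GalNAc transferase that starts O-glycans, was at 172, 139 and 128 CPM against 104 to 118 CPM with a median of 108. The ranges were separate, and the log2 fold change was 0.43 ± 0.07 (SE), adjusted p = 0.0222. C1galt1c1, the chaperone of the core 1 synthase, had a log2 fold change of 0.34 ± 0.07 (SE), adjusted p = 0.0447.

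Gcnt3, which makes the core 2 and core 4 branches of mucin glycans, was at 527, 357 and 279 CPM against 151 to 247 CPM with a median of 214. All 3 low-Hoxb13 libraries exceeded all mid-Hoxb13 libraries, with a log2 fold change of 0.90 ± 0.15 (SE), adjusted p = 0.0303. Gcnt4, another core 2 branching enzyme, was at 23.1, 17.4 and 6.81 CPM against 3.76 to 8.37 CPM with a median of 4.87. B. thetaiotaomicron sample 4 lay inside the mid-Hoxb13 range, and the log2 fold change was 1.57 ± 0.26 (SE), adjusted p = 0.0255.

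A4gnt, which caps glycans with alpha-1,4-linked GlcNAc and is best known from gastric gland mucin, was at 98.2, 90.8 and 57.7 CPM against 20.8 to 49.8 CPM with a median of 29.1. No overlap was seen, and the log2 fold change was 1.40 ± 0.23 (SE), adjusted p = 0.0309. Chst4, a sulfotransferase acting on GlcNAc, was at 50.1, 63.1 and 64.7 CPM against 71.2 to 82.8 CPM with a median of 78.1, with a log2 fold change of -0.40 ± 0.08 (SE), adjusted p = 0.0303. All low-Hoxb13 values of Chst4 lay under the mid-Hoxb13 range. The libraries at 300 CPM Hoxb13 and over also did, at 52.9 to 65.9 CPM, so Chst4 did not follow the Hoxb13 level.

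B3gnt7, which extends poly-N-acetyllactosamine chains, had a larger difference that did not pass: it was at 18.4, 41.2 and 74.4 CPM against 137 to 393 CPM with a median of 208. Low and mid values were fully apart, as in 5.9% of all genes tested. The log2 fold change was -2.45 ± 0.44 (SE) at an adjusted p of 0.0509. A further 3 enzymes of sialic acid and N-glycan synthesis passed as lower and were picked after their values were seen: St6galnac4, an O-glycan sialyltransferase, at -1.18, Mgat4a, an N-glycan branching enzyme, at -0.74, and Nans, the sialic acid synthase, at -0.51 on the log2 scale. Without PBS sample 4 the log2 fold changes of Gcnt3, Gcnt4, Galnt6 and St6galnac4 were 0.69, 1.40, 0.32 and -0.98, with adjusted p of 0.257, 0.24, 0.154 and 0.194.

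**Figure D4:**
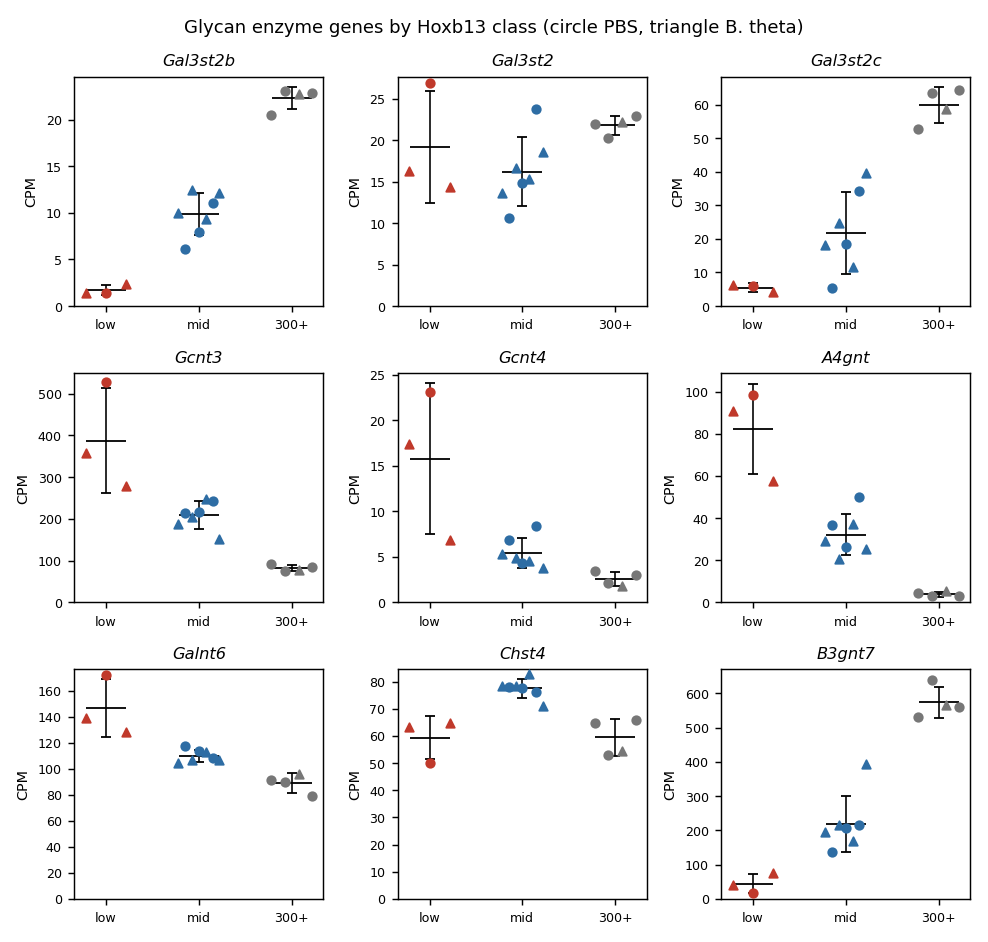
Level in CPM of 9 glycan enzyme genes in each library, by Hoxb13 class (low, mid, and 300 CPM and over in grey), with the mean and SD as bars. Gal3st2b, Chst4 and B3gnt7 are under the mid-Hoxb13 range in all 3 low-Hoxb13 libraries, Gcnt3, A4gnt and Galnt6 are over it, and Gal3st2, Gal3st2c and Gcnt4 overlap.

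Among goblet cell and mucus genes, 1 of 22 tested passed as lower and none as higher, where 1.19% of all genes tested passed. The median log2 fold change was -0.097. Zg16, a lectin-like mucus protein that binds Gram-positive bacteria, was at 2111, 1963 and 2177 CPM against 2821 to 3347 CPM with a median of 3019. The 3 values lay outside the mid-Hoxb13 range, and the log2 fold change was -0.54 ± 0.08 (SE), adjusted p = 0.0147. Rep15, a Rab15 effector, was at 78.9, 82.3 and 78.3 CPM against 109.9 to 141 CPM with a median of 124. Its log2 fold change was -0.61 ± 0.08 (SE), adjusted p = 0.00966, and its low-Hoxb13 values were close together. At 300 CPM Hoxb13 and over, Zg16 ran from 2333 to 3816 CPM and Rep15 from 113 to 177 CPM, both overlapping the mid-Hoxb13 range. Myo5c, a myosin of secretory granule transport, had a log2 fold change of -0.74 ± 0.11 (SE), adjusted p = 0.0237. With PBS sample 4 left out these 3 genes stood at -0.52, -0.58 and -0.59, with adjusted p of 0.108, 0.0768 and 0.108.

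The main mucin gene did not pass. Muc2 was at 4574, 5428 and 5331 CPM against 2159.7 to 4898 CPM with a median of 4366, adjusted p = 0.491. Fut2, which adds the terminal fucose of H antigen, had a log2 fold change of 0.40 ± 0.20 (SE), adjusted p = 0.402. For Fut2 it was 0.64 without PBS sample 4 and 0.15 without B. thetaiotaomicron sample 2. Reg3g, an antibacterial lectin, was at 263, 1485 and 237 CPM against 4.5 to 189 CPM with a median of 76.3. All low-Hoxb13 values were above the mid-Hoxb13 range, most of all in B. thetaiotaomicron sample 2, but the adjusted p was 0.254. Such a separation upward was seen in 2.53% of all genes tested. Ang4, a Paneth and goblet cell ribonuclease, was at 16.3, 69.3 and 207 CPM against 14.9 to 227 CPM with a median of 27.3, with full overlap.

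The median log2 fold change of 31 tested genes of sodium, chloride and water transport was -0.13. Of them 1 passed as lower and none as higher, where 1.19% of all genes tested passed. That gene was Scnn1a, the alpha subunit of the epithelial sodium channel, at 67.1, 82.1 and 102 CPM against 139 to 172 CPM with a median of 161. The ranges were separate, and the log2 fold change was -0.89 ± 0.12 (SE), adjusted p = 0.0133, and the libraries at 300 CPM Hoxb13 and over held 186 to 229 CPM. Scnn1b, its beta subunit, was at 19.1, 13.2 and 8.23 CPM against 4.84 to 22.2 CPM with a median of 16.5, with overlap, adjusted p = 0.9.

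Hsd11b2, which inactivates glucocorticoids and so leaves the mineralocorticoid receptor to aldosterone, was at 404, 281 and 313 CPM against 359 to 556 CPM with a median of 533. PBS sample 4 overlapped the lowest mid-Hoxb13 library, and the log2 fold change was -0.58 ± 0.11 (SE), adjusted p = 0.0323. Ace, the angiotensin-converting enzyme, was at 29, 31.2 and 28.7 CPM against 36.9 to 52.4 CPM with a median of 41.3, without overlap. Its log2 fold change was -0.54 ± 0.10 (SE), adjusted p = 0.0269. Without PBS sample 4 the values of Scnn1a, Hsd11b2 and Ace were -0.71, -0.68 and -0.57, with adjusted p of 0.0768, 0.154 and 0.165.

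Larger differences in transporter genes did not pass, and in these the low-Hoxb13 libraries were widely spread. Atp12a, the colonic proton-potassium pump, was at 2.38, 5.36 and 20.8 CPM against 99.2 to 607 CPM with a median of 289.5. No overlap was seen, which held for 5.9% of all genes tested. The log2 fold change was -5.05 ± 1.03 (SE) at an adjusted p of 0.0708. Slc26a3, the chloride-bicarbonate exchanger, was at 107, 423 and 546 CPM against 733 to 1289 CPM with a median of 1026. It did not overlap either, with a log2 fold change of -1.61 ± 0.47 (SE) and an adjusted p of 0.16, or -1.01 without PBS sample 4 (adjusted p = 0.306). Car4, a membrane carbonic anhydrase, was at 282, 712 and 692 CPM against 825 to 1294 CPM with a median of 1013. The log2 fold change of Car4 was -0.94 ± 0.26 (SE), adjusted p = 0.119, or -0.54 without PBS sample 4. Aqp8, a water channel, was at 27.2, 466 and 712 CPM against 440.3 to 918 CPM with a median of 804 (adjusted p = 0.453), and Aqp4, another, at 75.8, 705 and 853 CPM against 701 to 1160.3 CPM with a median of 962 (adjusted p = 0.454). Both were far lower in PBS sample 4 than in any other of the 10 libraries.

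Bile acid transporter genes, picked with 2 others after their values were seen, were highest in PBS sample 4. Slc10a2, the apical sodium-bile acid transporter, was at 279, 92.9 and 6.41 CPM against 3.33 to 98.3 CPM with a median of 9.89. Slc51a, the alpha subunit of the basolateral bile acid exporter, was at 192, 57.5 and 6 CPM against 1.33 to 54.8 CPM with a median of 1.68. Car1, a cytosolic carbonic anhydrase, was at 6159.6, 3442 and 1280.0 CPM against 485 to 2565 CPM with a median of 707. In each of the 3 the next highest libraries were B. thetaiotaomicron sample 2 and the mid-Hoxb13 PBS sample 7, so the groups overlapped. Osr2, a transcription factor on the proximal list, was at 166, 51.2 and 1.69 CPM against 0.0738 to 50.6 CPM with a median of 0.291, again with PBS sample 7 high. None of the 4 passed (adjusted p = 0.172, 0.165, 0.139 and 0.232), and 0 of 23 tested bile acid, lipid and cholesterol handling genes did.

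**Figure D5:**
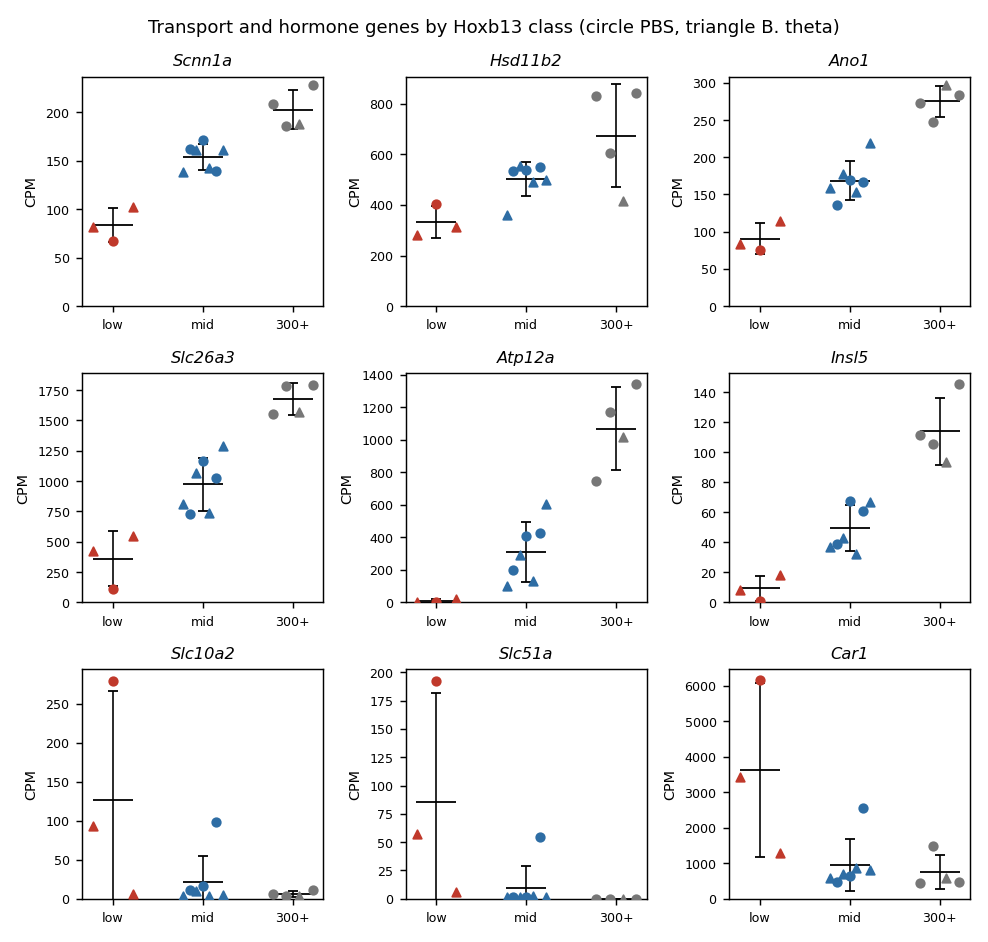
Level in CPM of 9 transport and hormone genes in each library by Hoxb13 class, with the mean and SD as bars. Scnn1a, Ano1, Slc26a3, Atp12a and Insl5 are lower in all 3 low-Hoxb13 libraries than in any mid-Hoxb13 library, and Slc10a2, Slc51a and Car1 are high in PBS sample 4, B. thetaiotaomicron sample 2 and the mid-Hoxb13 PBS sample 7.

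Lipid genes were mixed. Of 29 tested genes of sterol and fatty acid synthesis, 1 was higher and none lower, beside 0.652% and 0.542% of all genes tested. There were 14 positive and 15 negative values, and the median log2 fold change was -0.01. Me1, the cytosolic malic enzyme that supplies NADPH, was at 54.8, 51 and 45.2 CPM against 25.4 to 35.6 CPM with a median of 29.1. Low and mid values were fully apart, and the log2 fold change was 0.77 ± 0.09 (SE), adjusted p = 0.00966. Pparg, a nuclear receptor of fatty acids, was at 113, 109 and 102 CPM against 70 to 86 CPM with a median of 78.6. Its groups did not overlap, with a log2 fold change of 0.47 ± 0.08 (SE), adjusted p = 0.0246.

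Scd1, the stearoyl-CoA desaturase, had a log2 fold change of 0.79 ± 0.14 (SE), adjusted p = 0.0323, and was the gene of the synthesis list that passed. Scd1 was at 84.5 to 126 CPM in the low-Hoxb13 and 52.1 to 78.8 CPM in the mid-Hoxb13 libraries. The libraries at 300 CPM Hoxb13 and over held 82.8 to 149 CPM, so Scd1 did not follow the Hoxb13 level. Of 25 tested genes of fatty acid oxidation and ketogenesis, 23 had positive values, and the median was 0.23. Lpin2, a phosphatidate phosphatase, Insig2, a sterol-regulated retention protein, and Dbi, the acyl-CoA binding protein, were higher by 0.62, 0.37 and 0.30 on the log2 scale. Pcca, a subunit of propionyl-CoA carboxylase, was lower: it was at 45, 47.9 and 53 CPM against 62.5 to 83 CPM with a median of 71.4, a log2 fold change of -0.57 ± 0.07 (SE), adjusted p = 0.0102. At 300 CPM Hoxb13 and over, Pcca was at 55.2 to 71.9 CPM, overlapping the mid-Hoxb13 range. With PBS sample 4 left out the log2 fold changes of Me1, Pparg, Scd1 and Pcca were 0.74, 0.39, 0.61 and -0.58. Their adjusted p were 0.0768, 0.192, 0.265 and 0.0768.

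Fat cell genes had higher values beside this group. Of 15 tested adipocyte genes, 3 passed (Cidec, Lpl and Pparg), where 1.19% of all genes tested did. All 15 had positive values, and the median was 0.68. Their summed level was 304 to 587 CPM in the low-Hoxb13 and 213 to 293 CPM in the mid-Hoxb13 libraries. It was not particular to the low-Hoxb13 libraries. At 300 CPM Hoxb13 and over it was 407, 473 and 139 CPM in PBS samples 1, 3 and 5. B. thetaiotaomicron sample 3 of that class held 368 CPM. Cidec, a lipid droplet protein, and Lpl, lipoprotein lipase, had log2 fold changes of 0.90 and 0.58, or 0.60 and 0.36 without PBS sample 4. Adipoq, which fat cells secrete, was at 13.2, 4.65 and 2.23 CPM against 0.314 to 3.64 CPM with a median of 2.22, so PBS sample 4 and B. thetaiotaomicron sample 2 lay above the mid-Hoxb13 range. In the libraries at 300 CPM Hoxb13 and over, Adipoq ran from 0.0704 to 9.48 CPM. The part of attached fat in the lipid gene differences was not tested. In bulk tissue, fewer cells of a type and less RNA per cell cannot be told apart.

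Of 51 tested drug metabolising enzymes, 5 were higher and none lower, beside 0.652% and 0.542% of all genes tested. The median log2 fold change was 0.24. The list's summed level was 8334, 5906 and 4929 CPM against 4439 to 6570 CPM, so only PBS sample 4 lay above the mid-Hoxb13 range. Ugt2b5, a glucuronosyltransferase, was at 54.6, 38.1 and 18.2 CPM against 5.1 to 20.5 CPM with a median of 9.57. B. thetaiotaomicron sample 4 was exceeded by 1 mid-Hoxb13 library, PBS sample 7, and the log2 fold change was 1.84 ± 0.30 (SE), adjusted p = 0.0309. Ugt1a1, the bilirubin glucuronosyltransferase, had a log2 fold change of 1.82 ± 0.38 (SE), adjusted p = 0.0446, which was 1.17 without PBS sample 4. Cyp4f40, Akr1c19 and Nqo1, a cytochrome P450, an aldo-keto reductase and a quinone reductase, were higher by 0.62, 0.69 and 0.38. Without PBS sample 4 these were 0.44, 0.42 and 0.23.

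Cyp2j6, a cytochrome P450 outside that count, was at 113, 112 and 88.4 CPM against 65.9 to 77.4 CPM with a median of 72.1. The 3 values lay outside the mid-Hoxb13 range, and the log2 fold change was 0.57 ± 0.08 (SE), adjusted p = 0.0133, or 0.52 without PBS sample 4 (adjusted p = 0.108). Cyp2c55 was at 1168, 355 and 267 CPM against 80.9 to 495 CPM with a median of 200.1 and did not pass (adjusted p = 0.314). Ugt2b5, Ugt1a1, Akr1c19, Cyp2j6 and Cyp4f40 have close paralogs or shared exons, and the counting of reads that such copies share is not known here.

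Among 28 tested enteroendocrine genes 1 was higher and 1 lower, beside 0.652% and 0.542% of all genes tested. Sct, which encodes secretin, was at 14, 6.79 and 4.99 CPM against 2.26 to 6.21 CPM with a median of 3.3, with B. thetaiotaomicron sample 4 inside the mid-Hoxb13 range. Its log2 fold change was 1.24 ± 0.26 (SE), adjusted p = 0.0415. Isl1, a transcription factor of endocrine and neural cells, was at 0.773, 0.858 and 0.81 CPM against 1.36 to 3.22 CPM with a median of 2.76, a log2 fold change of -1.58 ± 0.35 (SE), adjusted p = 0.0489. Insl5, a hormone of distal colonic L cells, was at 1.22, 8.58 and 18.1 CPM against 32.1 to 67.7 CPM with a median of 42.9. Its groups did not overlap, as in 5.9% of all genes tested, but its adjusted p was 0.138 at a log2 fold change of -2.47 ± 0.68 (SE). Nts, neurotensin, was at 64.3, 22.5 and 6.48 CPM against 0.134 to 17.4 CPM with a median of 1.01, adjusted p = 0.085. Pyy, peptide YY, had a log2 fold change of -0.80 ± 0.27 (SE), adjusted p = 0.205. Htr4, a serotonin receptor, was at 10.4, 12.7 and 16.2 CPM against 21 to 32.8 CPM with a median of 23.9, without overlap. Its log2 fold change was -0.99 ± 0.13 (SE), adjusted p = 0.0105. With PBS sample 4 left out the values of Sct, Isl1 and Htr4 were 0.91, -1.59 and -0.92, with adjusted p of 0.347, 0.257 and 0.105.

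Of 42 tested regional transcription factors other than Hox genes, Cdx2 was higher, Foxa2 was lower and 40 did not pass. For all genes tested the share passing was 1.19%. Cdx2, the intestinal homeobox factor, was at 398, 373 and 335 CPM against 192 to 293 CPM with a median of 275. The ranges were separate, and the log2 fold change was 0.49 ± 0.10 (SE), adjusted p = 0.0447, and the libraries at 300 CPM Hoxb13 and over held 25.5 to 141 CPM. Foxa2, a forkhead factor of endoderm, was at 17.3, 22.7 and 25 CPM against 32.3 to 45.1 CPM with a median of 37.5, a log2 fold change of -0.80 ± 0.15 (SE), adjusted p = 0.0288. Without PBS sample 4 these were 0.47 and -0.61, with adjusted p of 0.28 and 0.228. Gata6, a zinc finger factor of endoderm, did not pass (adjusted p = 0.213).

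The motif TTTATNG, close to sites known for posterior homeobox proteins, was searched on both strands in the 250 bases before the start. It was in 11.67% of 60 promoters of lower genes, 6.94% of 72 promoters of higher genes, 6.53% of the 11492 tested genes with an entry and 10.16% of all 27025 promoters. Of the 174 genes 132 had an entry. Pla2g2f, a secreted phospholipase A2 picked after its values were seen, is shown as a lower gene with 1 match, in capitals on the complementary strand. It was at 3.93, 10.7 and 15.7 CPM against 29.9 to 48.9 CPM with a median of 32.7, a log2 fold change of -1.91 ± 0.29 (SE), adjusted p = 0.0255, or -1.50 without PBS sample 4 (adjusted p = 0.0768). A match of letters is a description and shows no binding.
Pla2g2f, chr4:138757627-138757848, minus strand: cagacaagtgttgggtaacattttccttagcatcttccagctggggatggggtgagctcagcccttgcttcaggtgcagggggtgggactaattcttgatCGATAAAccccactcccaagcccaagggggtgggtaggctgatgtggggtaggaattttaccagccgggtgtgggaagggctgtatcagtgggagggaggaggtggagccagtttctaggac

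Some genes of cells outside the epithelium passed, where 1.19% of all genes tested did. Adamdec1, a metalloproteinase-like gene of gut stromal and myeloid cells, was at 1429.9, 757 and 576 CPM against 313 to 518 CPM with a median of 388. No overlap was seen, and the log2 fold change was 1.17 ± 0.16 (SE), adjusted p = 0.0246, and it was 0.86 without PBS sample 4 (adjusted p = 0.105). Ano1, a calcium-activated chloride channel of interstitial cells of Cajal that epithelia also express, was at 74.7, 83.6 and 114 CPM against 136 to 219 CPM with a median of 167. It did not overlap, with a log2 fold change of -0.92 ± 0.14 (SE), adjusted p = 0.0246, or -0.84 without PBS sample 4 (adjusted p = 0.204). It was the 1 gene of 11 in the interstitial cell list that passed, while 7 of the 11 had positive and 4 negative values, and the median was 0.039. The summed level of that list, Ano1 included, was 499 to 557 CPM in the low-Hoxb13 and 622 to 771 CPM in the mid-Hoxb13 libraries.

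Ret, the receptor of enteric neuron precursors, had a log2 fold change of 0.45 ± 0.09 (SE), adjusted p = 0.0336, and was the 1 gene of 32 in the enteric neuron and glia list that passed. Ctss, cathepsin S, and Clock, a core circadian transcription factor, had log2 fold changes of -0.30 and -0.31. None of the 25 smooth muscle genes passed, 21 of them had negative values with a median of -0.15, and their summed level was 8185 to 11548 CPM against 9111 to 12690 CPM. Acta2, smooth muscle actin, was at 997, 821 and 1216 CPM against 969 to 1303 CPM with a median of 1097. None of 32 fibroblast, 22 endothelial, 20 B cell, 11 plasma cell, 30 macrophage and dendritic cell, 34 interferon response and 30 cell cycle genes passed. With 1.19% of all genes tested passing, lists this short can hold none without differing from other genes.

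No marker of small intestine passed. Of 14 tested, 13 had positive values, and the median was 0.59. The summed level was 558 to 911 CPM in the low-Hoxb13 and 415 to 547 CPM in the mid-Hoxb13 libraries. Apoa4, Fgf15 and 3 alpha-defensin genes of that list had no count in any of the 10 libraries. The part of small intestinal tissue in the differences above was not tested.

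The other genes with the smallest p that were higher were Paqr8, a membrane progestin receptor, Ndrg1, a stress-responsive gene, Mal2, of apical transport, Nupr1, a stress-induced chromatin protein, Cst6, a cystatin, Fbxo34, an F-box gene, and Pstpip2, of the actin cytoskeleton. Paqr8 was at 54.3, 54 and 41.2 CPM against 17.8 to 30.2 CPM with a median of 21.1, without overlap, a log2 fold change of 1.11 ± 0.15 (SE), adjusted p = 0.0147. The other 6 ranged from 0.41 for Fbxo34 to 2.06 for Cst6 on the log2 scale. Among lower genes, Dnah5, an axonemal dynein, Ap1s3, of clathrin adaptor complex 1, Rasef, a Rab-like gene, Trak1, of mitochondrial transport, Capn8, a calpain, Nod1, a sensor of bacterial peptidoglycan, and Oit1 ranged from -1.55 for Dnah5 to -0.35 for Oit1. With PBS sample 4 left out none of these 14 genes passed. Paqr8, Cst6 and Dnah5 then stood at 1.09, 1.89 and -1.22, with adjusted p of 0.14, 0.228 and 0.15. Dnah5 was at 5.37 to 9.42 CPM in the mid-Hoxb13 libraries and at 5.09 to 6.26 CPM at 300 CPM Hoxb13 and over.

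PBS sample 4 is the single PBS library among the low-Hoxb13 ones, and it was unlike the 2 others in some genes. In a fit with a product of class and gavage, 27 genes other than Hox genes passed, 0.182% of those tested. Since PBS has 1 low-Hoxb13 library, the term describes PBS sample 4, which is assumed to vary like the rest. It cannot tell a trait of that library from a difference between the gavages. Aqp4 and Aqp8 had interaction values of 3.16 and 3.96 on the log2 scale (edgeR adjusted p = 0.0191 and 0.0372). Among the other genes of that fit, Ccnb1, Racgap1 and Kif20b, genes of cell division picked after their values were seen, had values of 1.14, 1.06 and 1.23. Each was lower in PBS sample 4 than in any other of the 10 libraries. No cell cycle gene passed in the main comparison. The summed level of that list was 1180 to 2214 CPM in the low-Hoxb13 and 1432 to 2027 CPM in the mid-Hoxb13 libraries. The 1180 CPM was in PBS sample 4.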

How the data were processed

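RNA from mouse colon was sequenced in 14 libraries. The authors deposited raw read counts per gene for 21898 genes, per the file headers, and FPKM values that the authors computed from those counts, per the file headers, which were not tested. The submitters' processing notes name GRCm38 and mm10. Neither aligner, counting program nor strand setting is stated: not given in the sources used here. Gene positions come from GENCODE M21 (GRCm38) by identifier, found for 173 of the 174 called genes, and promoters from the RefSeq table.

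Genes passing edgeR's filterByExpr (minimum count 10, minimum total 15) were tested in the 10 libraries with edgeR 4.0.16 (quasi-likelihood F test, TMM factors, robust dispersions, gavage as covariate) in R 4.3.3. The Benjamini-Hochberg threshold was 0.05 over all genes. Levels are CPM on TMM-scaled totals, and SEs are the log2 fold change over the square root of F. The biological coefficient of variation was 0.133. Alternatives used DESeq2 1.42.0, limma-voom (limma 3.58.1), other scaling, filters, covariates, subsets and thresholds, and left out each library. Figures used matplotlib 3.10.9.

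The groups, gene lists and tests were chosen with earlier results of these data known. Named genes are, per direction, the 15 called genes of lowest p (established symbol, mean of 1 CPM or more where higher), then at most 3 called members per list, and others whatever their result (Fut2, Ang4, Reg3g, Muc2, Cyp2c55, Aqp4, Aqp8, Scnn1b, Slc26a3, Car4, Insl5, Pyy, Gata6 and Acta2). Some genes that meet this rule are not reported here. Gal3st2, Gal3st2c, A4gnt, C1galt1c1, Chst4, B3gnt7, Atp12a, Ugt1a1, Nqo1, Nts and Adipoq, and genes so marked in the text, were added after their values were seen. The labels do not say whether replicate numbers pair samples across gavages, and the main fit did not pair them.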

Additional observations from a re-analysis of the deposited data

Results flagged for a closer look

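In 6 of the 64 named genes, 1 of the 7 mid-Hoxb13 libraries lay far from the other 6, and chance alone gives about 1 such gene in 20. PBS sample 7 was the library in 4 of them, above the others: Cst6 at 1.46 CPM (others 0.369 to 0.802), Cyp4f40 at 54.4 CPM (others 38 to 44.5), Ugt2b5 at 20.5 CPM (others 5.10 to 11.4) and Cyp2c55 at 495 CPM (others 80.9 to 252). Hsd11b2 was at 359 CPM in B. thetaiotaomicron sample 1 (others 490 to 556). Cdx2 was at 192 CPM in B. thetaiotaomicron sample 7 (others 263 to 293), the mid-Hoxb13 library with the most Hoxb13.

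Aqp4 and Aqp8 stood out in the term for class by gavage, with values of 3.16 and 3.96 on the log2 scale. The PBS side of that term holds 1 low-Hoxb13 library, PBS sample 4. The term therefore cannot tell a trait of this library from a difference between the gavages.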

How the results depend on the processing

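All 174 genes kept their sign in each alternative that gave them a value. The counts of genes higher and lower, 95 and 79, were 335 and 369 with DESeq2, 143 and 127 without robust dispersions, 30 and 34 without a gavage term, and 4 and 6 with a smooth muscle score as covariate. They were 0 and 1 in the B. thetaiotaomicron libraries alone, 141 and 205 in the PBS libraries alone, where the lone low-Hoxb13 library is assumed to vary like the others, and 123 and 121 with all 14 libraries. An adjusted p of 0.01 left 1 and 2, and adding a 2-fold minimum left 23 and 11. Counts moved by less than 1.5 times with limma-voom, other scaling factors and other filters. Leaving out 1 library gave 0 to 170 higher and 1 to 144 lower genes. The higher and lower counts were 0 and 1 without PBS sample 4 or B. thetaiotaomicron sample 2, 46 and 38 without PBS sample 6, 47 and 29 without PBS sample 7, 66 and 45 without B. thetaiotaomicron sample 5, and 170 and 144 without B. thetaiotaomicron sample 4. The difference in total counts, -441099, ran from -732945 to -152642 in those fits, and the difference in mitochondrial share, 0.0376 percentage points, from -0.287 to 0.227. The 27 interaction genes were 222 with DESeq2. The cause of these changes was not tested. With the replicate number as a block 0 genes were higher and 0 lower with edgeR, and 970 had an unadjusted p under 0.05. In that fit the class term rested on PBS sample 2 against B. thetaiotaomicron sample 2, since no other replicate number joined the 2 classes. It could hardly call a gene, so it cannot decide whether the results depend on pairing. The labels do not say whether samples of equal number share anything else. Over 7 pairs the correlation of deviations ran from -0.639 to 0.173, and 0 libraries correlated best with their own number. These correlations cannot exclude a pairing, since the pairs are few and some of them join different Hoxb13 classes. The comparison had 3 libraries against 7, and 1 of the 3 was from PBS.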
